A study of Mus musculus with 39 samples.

Results

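Detoxification enzymes encoded by 10 genes were followed by gene symbol through all 39 poly(A) RNA-Seq libraries of the series: the mu-class glutathione transferases *Gstm1*, *Gstm2*, *Gstm3*, *Gstm4* and *Gstm6*, the reductases *Cbr3* and *Nqo1*, the glutathione synthesis gene *Gclc*, the alpha-class transferase *Gsta4* and the carboxylesterase *Ces2a*. They are 10 of 45706 genes listed for every library. The group was put together because *Gstm2* and *Gstm3* were lower in E47-deficient livers after corticosterone (Cort). The difference between genotypes under Cort is therefore given below as a description without a test, and tests are given only for the other comparisons.

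Glutathione transferases join glutathione to reactive compounds so that these can be exported. Many of their genes, with *Nqo1* and *Gclc*, are activated by the transcription factor NRF2 (*Nfe2l2*), which is held back by KEAP1 until oxidants or electrophiles release it and which binds antioxidant response elements (AREs) together with small MAF proteins. The liver expresses these enzymes abundantly, and glucocorticoids, which act through the glucocorticoid receptor on glucocorticoid response elements (GREs), are among the many signals that change them. E47 is a splice product of *Tcf3* that binds E-boxes.

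All animals were male C57BL/6 mice aged 10 to 16 weeks. Whole-body knockouts (E47KO, E47-/-) and wild-type controls (WT, E47+/+) provided livers after 3 weeks of Cort in the drinking water at 100 μg/ml (4 WT, 4 E47KO), livers, skeletal muscle and white adipose tissue (WAT) after 3 weeks of dexamethasone (Dex) in the drinking water at 10 μg/ml (liver and muscle each 2 WT and 3 E47KO, WAT 2 WT and 2 E47KO), and untreated livers (5 WT, 6 E47KO). Hepatocyte-specific mutants (E47LKO, Albcre/+;E47fl/fl, 3 livers) and Cre-negative floxed controls (1 Alb+/+;E47fl/+ and 2 Alb+/+;E47fl/fl) were collected 1 h after Dex had been injected at 1 mg/kg. The Cort and 3-week Dex mice were fasted for a glucose tolerance test before they were killed, RNA was extracted with a different kit after the acute injection, and the library type differed between experiments, so the drug, the fast and these steps cannot be told apart in a comparison between experiments. Whole-body knockouts lack E47 in every cell type, and in the E47LKO only the albumin promoter drives Cre. The same Dex mice (E47KO replicates 1 and 2 and WT replicate 1) gave both a liver and a muscle library.

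The 7 annotated *Gstm* genes form one cluster on mouse chromosome 3 (chr3:107895821-108044894, GRCm38, 149 kb), all 5 studied members being transcribed from the minus strand. *Gstm6* lies at chr3:107938847-107943749, *Gstm3* at chr3:107963696-107969283, *Gstm2* at chr3:107981702-107986453, *Gstm1* at chr3:108012255-108017973 and *Gstm4* at chr3:108040408-108044894. The other members are elsewhere: *Cbr3* at chr16:93683215-93690990 (plus strand), *Nqo1* at chr8:107388225-107403206 (minus), *Ces2a* at chr8:104734003-104741634 (plus), *Gclc* at chr9:77754535-77794485 (plus) and *Gsta4* at chr9:78182774-78209349 (plus). All 10 are annotated as protein-coding, and the counts are over exons. Within the cluster the longest open reading frames were 63.9% to 84.9% identical over 21 pairs, and those of *Gstm2* and *Gstm3* were 84.8% identical. Of the distinct 50-base stretches of the transcripts of *Gstm3*, 28.8% also occurred in another gene. The share was 18.9% for *Gstm1*, 17.3% for *Ces2a*, 5.97% for *Gstm6*, 5.65% for *Gstm2* and at most 0.0797% for the other members. Reads lying wholly within shared stretches may not be assignable to one gene, so the levels of *Gstm1*, *Gstm3* and *Ces2a* in particular carry this uncertainty. The length of the reads was not taken into account, and the share of reads affected was not measured.

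Promoter sequences from RefSeq (GRCm38.p6) were available for 8 of the 10 members, and not for *Gclc* or *Gsta4*. They were searched on both strands, from 250 bases before to 50 after the start of transcription, for letters resembling the sites of the factors named above. For *Gstm1*, *Gstm4* and *Gstm6*, with 2, 2 and 3 promoters listed, only the 1 nearest the annotated start of the gene was searched. The 250 bases before the start are printed, 5′ to 3′ on the strand of the gene, for *Gstm2* and *Gstm3*, on which the group was built, for *Gstm1* and *Gstm6*, which held a GRE hexamer, and for *Nqo1*, a gene widely used as an NRF2 target, whose stretch holds none of these letters. Capitals mark an E-box (CANNTG) or a GRE hexamer (AGAACA, or TGTTCT on the opposite strand). The stretches are chr3:107986421-107986670 for *Gstm2*, chr3:107969175-107969424 for *Gstm3*, chr3:108017974-108018223 for *Gstm1*, chr3:107943735-107943984 for *Gstm6* and chr8:107403206-107403455 for *Nqo1*, all on the minus strand.
Gstm2: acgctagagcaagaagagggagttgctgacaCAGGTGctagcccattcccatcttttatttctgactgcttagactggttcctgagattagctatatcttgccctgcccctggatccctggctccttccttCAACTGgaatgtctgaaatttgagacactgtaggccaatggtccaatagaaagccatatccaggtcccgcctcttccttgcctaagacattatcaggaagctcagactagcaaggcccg
Gstm3: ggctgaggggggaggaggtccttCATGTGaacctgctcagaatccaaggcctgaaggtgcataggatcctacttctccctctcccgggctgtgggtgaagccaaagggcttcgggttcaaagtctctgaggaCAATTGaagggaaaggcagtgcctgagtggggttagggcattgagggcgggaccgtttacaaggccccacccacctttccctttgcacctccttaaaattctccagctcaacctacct
Gstm1: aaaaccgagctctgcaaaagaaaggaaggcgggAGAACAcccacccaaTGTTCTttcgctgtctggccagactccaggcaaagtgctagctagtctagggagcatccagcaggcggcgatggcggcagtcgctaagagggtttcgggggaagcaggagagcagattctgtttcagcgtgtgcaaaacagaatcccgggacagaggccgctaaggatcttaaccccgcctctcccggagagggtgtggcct
Gstm6: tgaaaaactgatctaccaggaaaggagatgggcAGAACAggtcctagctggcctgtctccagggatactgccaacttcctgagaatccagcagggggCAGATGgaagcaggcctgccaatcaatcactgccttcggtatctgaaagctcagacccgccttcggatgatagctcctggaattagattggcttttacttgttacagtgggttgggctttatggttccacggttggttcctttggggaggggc
Nqo1: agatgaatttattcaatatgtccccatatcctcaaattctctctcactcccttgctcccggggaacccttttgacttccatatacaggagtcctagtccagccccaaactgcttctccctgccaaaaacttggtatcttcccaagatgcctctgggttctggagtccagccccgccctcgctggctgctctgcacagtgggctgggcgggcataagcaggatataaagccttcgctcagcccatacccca

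The ARE core searched (TGACNNNGC) occurred in 0 of the 8 members and in 12.4% of 32851 mouse promoters of the same length. The E-box occurred in 6 of 8 members and in 72.3% of all promoters. *Gstm2* carried the form CAGGTG at -219 (20.2% of all promoters) and *Gstm6* the form CAGCTG at 31 (16.3%), both of which also count as E-boxes. The full GRE (AGAACA, then 3 bases of any kind, then TGTTCT) occurred in 0 members and in 0.00913% of promoters, and its hexamer AGAACA in 2 members, *Gstm1* and *Gstm6*, against 19.0% of all promoters. In *Gstm1* the hexamer stood at -217 and again on the opposite strand at -202. In *Gstm6* it stood at -217 and again on the opposite strand at 16, outside the printed stretch. No match says only that these letters are not in these windows.

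Each library held 15.5 to 54.6 M counts in genes. Levels are given as CPM, the count of a gene scaled to the size of its library times its TMM factor, on one scale over all 39 libraries. The TMM factors, estimated over all libraries, were 1.61 to 1.77 in WAT, 0.864 to 0.983 in Dex liver and 0.931 to 1.08 in muscle. Levels compared between tissues therefore rest on this scaling. Different genes are compared only as CPM per kilobase of exon (RPKM). The 6 hepatocyte markers checked summed to 73766 to 152539 CPM in livers, 2769 to 5674 CPM in WAT and 8.34 to 221 CPM in muscle. Their defining markers likewise placed the WAT libraries (adipocyte sum 22493 to 25599 CPM) and the muscle libraries (skeletal muscle sum 110366 to 181605 CPM). In bulk tissue, fewer cells of a type and less RNA per cell cannot be told apart. The whole-gene *Tcf3* count spans all splice products and does not check the knockout. It was 12.5 ± 0.995 CPM (SD, n = 6) in untreated E47KO and 13.9 ± 2.70 CPM (n = 5) in untreated WT livers. B cell markers, whose cells need E47, summed to 0.0884 to 0.404 CPM in untreated E47KO and 1.75 to 3.44 CPM in untreated WT livers. In Cort livers the sums were 0.0266 to 0.157 CPM in E47KO and 0.288 to 0.408 CPM in WT. In 3-week Dex livers they overlapped, at 0 to 0.239 CPM in E47KO and 0.0522 to 0.0640 CPM in WT. The genotypes also overlapped in WAT and muscle, so these markers do not check the knockout in the 3-week Dex sets.

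Library numbers in the sample titles divided the untreated livers in a way that bears on the comparisons that use them. The 3 lower-numbered libraries (E47KO replicate 1, WT replicates 1 and 2) held traces of skeletal muscle transcripts summing to 0.991 to 1.56 CPM, and the 8 higher-numbered ones 14.8 to 245 CPM. In the Cort livers the lower animal numbers (WT replicate 1, E47KO replicates 1 and 2) had 0.730 to 1.01 CPM of these transcripts and the others 119 to 163 CPM. Most member comparisons with untreated livers and most list counts below are therefore also given with the lower-numbered and the higher-numbered libraries alone. This alternative was chosen after the values were seen. Both untreated genotypes weigh equally in these comparisons, and E47KO replicate 1 is the only E47KO library among the lower numbers. The lower-numbered reference therefore leans on that liver. For *Gstm3* it read 157 CPM, against 89.4 and 101 CPM in the WT livers of that set.

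The 10 genes span a wide range of levels in untreated WT liver. *Gstm1*, the main hepatic mu-class transferase, was highest at 929.6 ± 358 RPKM (SD, n = 5), followed by *Ces2a*, an esterase that hydrolyses drugs and lipids, at 214 ± 71.9. Between 37.6 and 60.1 RPKM lay 6 genes: *Gclc* (60.1 ± 14.4), the catalytic subunit of the enzyme that starts glutathione synthesis, *Gstm6* (59.4 ± 25.8), *Gstm2* (54.4 ± 21.2), *Gsta4* (51.9 ± 18.0), which conjugates lipid peroxidation products, *Gstm3* (48.1 ± 23.3) and *Gstm4* (37.6 ± 12.3). The spread of each of these covers its neighbours in the order. *Nqo1*, a quinone reductase, stood at 5.12 ± 0.776 RPKM and *Cbr3*, a carbonyl reductase, at 0.350 ± 0.0902 RPKM. In the untreated, Dex and 1 h Dex livers the *Cbr3* level rested on 4 to 24 counts per library. *Gstm1* supplied 76.8% of the counts of the 7 *Gstm* genes in untreated WT livers on average, with 73.2% to 80.4% in single livers.

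In Cort livers, the comparison the genes were chosen on, *Gstm3* read 195, 99.0, 114 and 66.4 CPM in the 4 WT livers and 24.1, 25.0, 27.8 and 29.1 CPM in the 4 E47KO livers. The WT values were scattered over a wide range and the E47KO values lay close together beneath them, at a log2 fold change of -2.17 ± 0.29 (SE). *Gstm2* read 186, 162, 110.1 and 138 CPM in WT and 55.1, 52.4, 43.8 and 72.5 CPM in E47KO, a log2 fold change of -1.43 ± 0.20. Again no E47KO liver reached the lowest WT liver.

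*Cbr3* read 13.0, 2.78, 3.45 and 2.11 CPM in Cort WT and 1.17, 1.17, 0.739 and 0.904 CPM in Cort E47KO livers (log2 fold change -2.44 ± 0.59). WT replicate 1 stood far above the other 3 WT livers, and without it the log2 fold change of *Cbr3* was -1.49 ± 0.24. *Nqo1* read 10.9, 9.59, 11.2 and 10.8 CPM in WT and 7.87, 8.73, 6.56 and 7.66 CPM in E47KO (log2 fold change -0.48 ± 0.11), and *Gstm4* 48.6 to 70.7 CPM in WT and 34.5 to 46.0 CPM in E47KO (-0.49 ± 0.13). The groups of both genes were separate.

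The other 5 members overlapped between the Cort genotypes. *Gstm1* read 1147 to 1387 CPM in WT and 1014 to 1149.8 CPM in E47KO. Its log2 fold change was -0.32, and -0.38 to -0.29 when 1 library was left out. The overlap of *Gstm1* rested on WT replicate 4 (1147 CPM), the other WT livers reading 1368 to 1387 CPM. *Gstm6* read 39.4 to 51.8 CPM in WT and 41.7 to 49.3 CPM in E47KO, with a log2 fold change of -0.01 ± 0.10, although its gene is the neighbour of *Gstm3* in the cluster. The log2 fold changes were -0.01 ± 0.45 for *Gclc*, 0.04 ± 0.28 for *Gsta4* and 0.25 ± 0.17 for *Ces2a*. All 4 E47KO livers lay below all 4 WT livers for 5 of the 10 members, against 3.46% of the genes tested, and the median log2 fold change was -0.40 against 0.00 for all genes. Because these genes were picked on this contrast, no inference is drawn from either figure.

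Within the lower animal numbers of the Cort livers, *Gstm3* read 195 CPM in the WT liver and averaged 24.6 CPM in the 2 E47KO livers, and within the higher numbers it averaged 93.2 and 28.4 CPM (3 WT, 2 E47KO). *Gstm2* read 186 CPM against 53.7 CPM and 137 against 58.2 CPM in the same sets. The hepatocyte marker sum was 104623 to 152539 CPM in Cort WT and 97080 to 118730 CPM in Cort E47KO livers. The part of this difference in the result was not tested. In total the *Gstm* family summed to 1724 ± 176 CPM in Cort WT and 1269 ± 48.0 CPM in Cort E47KO livers (SD, n = 4 each). *Gstm3* supplied 6.72% of that sum in WT and 2.09% in E47KO livers, *Gstm2* 8.64% and 4.43%, and *Gstm1* 76.7% and 84.2%. The mean of *Gstm1* itself was 1320 CPM in WT and 1070 CPM in E47KO livers.

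**Figure D1:**
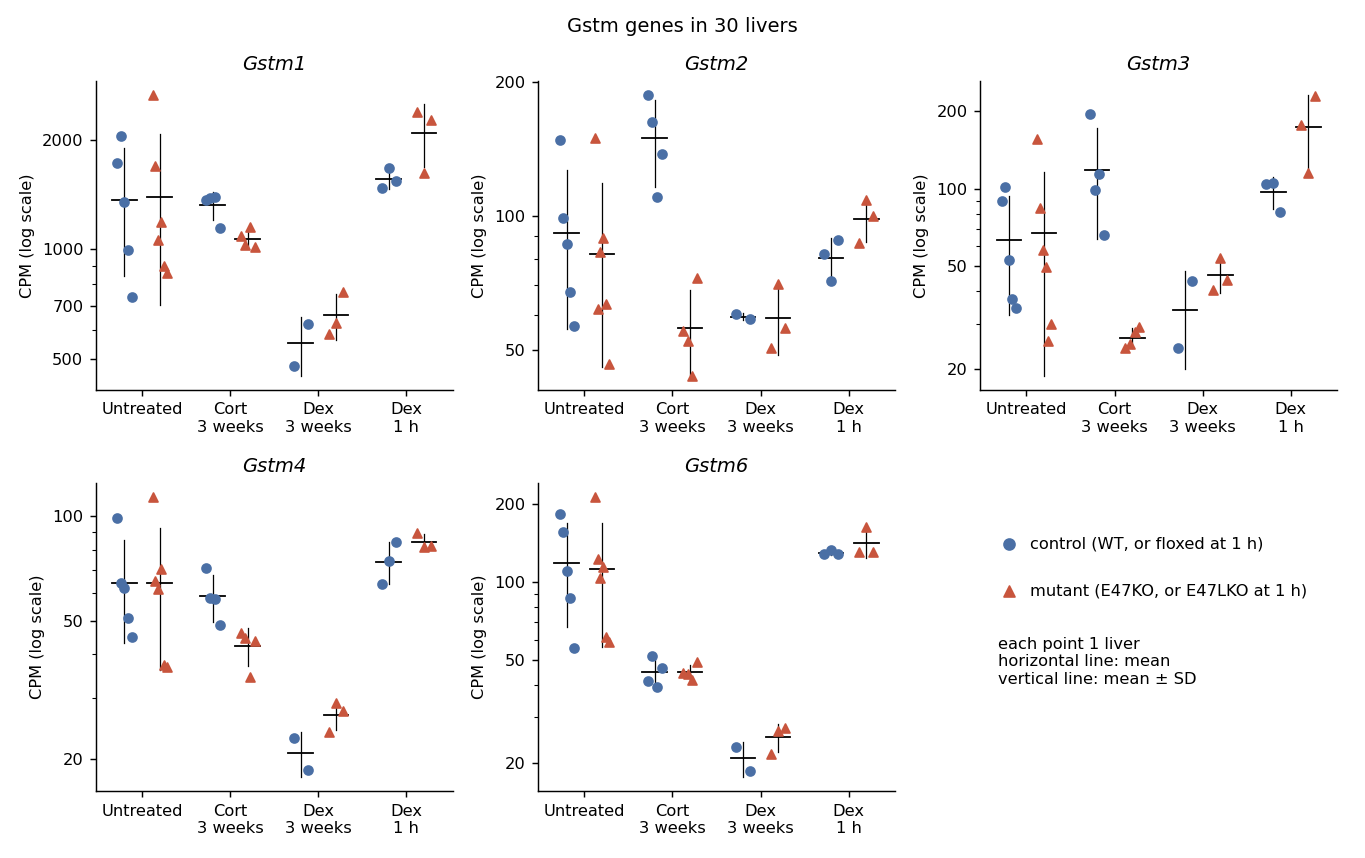
CPM (log axis) of the 5 *Gstm* genes in each of 30 livers, by treatment and genotype, with the mean (horizontal line) and SD (vertical line) of each group. The Cort E47KO livers lie at 24.1 to 29.1 CPM for *Gstm3*, beneath all Cort WT livers, while the untreated livers of both genotypes spread from 25.6 to 157 CPM.

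Whether the genotype difference also existed without Cort was asked in 3 other sets of livers and in 2 other tissues. The stated reason for the choice does not rest on them, but earlier results of all these libraries were known when the genes were chosen. In untreated livers the genotypes overlapped for all 10 genes (of all genes tested, 0.194% had every E47KO liver above and 0.252% every E47KO liver below the WT livers). *Gstm3* ranged from 25.6 to 157 CPM in 6 E47KO livers (median 54.0) and read 89.4, 101, 52.8, 37.4 and 34.4 CPM in the WT livers, a log2 fold change of 0.09 ± 0.45. *Gstm2* ranged from 46.6 to 149.5 CPM in E47KO (median 73.2) and read 148, 98.8, 86.2, 67.5 and 56.5 CPM in WT (-0.16 ± 0.30). The other 8 members had log2 fold changes between -0.20 (*Gsta4*) and 0.30 (*Cbr3*). By edgeR's quasi-likelihood test 0 of 10 members passed an adjusted p of 0.05 (0.0288% of 13904 genes did), 0 passed an unadjusted p of 0.05 (3.63% of genes did), and DESeq2 called 0.

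After 3 weeks of Dex, *Gstm3* read 40.5, 53.8 and 44.4 CPM in E47KO and 24.1 and 43.9 CPM in WT livers, so 1 E47KO liver lay between the WT livers and the other 2 E47KO livers above (log2 fold change 0.45 ± 0.27). Without WT replicate 1 the *Gstm3* value was 0.085 ± 0.22 and without WT replicate 2 it was 0.94 ± 0.23. *Gstm2* read 50.4, 70.4 and 56.0 CPM in E47KO and 60.1 and 58.7 CPM in WT (-0.00 ± 0.17), the WT livers lying inside the E47KO range. *Nqo1* read 4.12, 4.01 and 4.04 CPM in E47KO and 2.97 and 2.18 CPM in WT (0.65 ± 0.25), and *Cbr3*, *Gclc* and *Gstm4* likewise had every E47KO liver above both WT livers. The log2 fold change of *Gclc* was 0.43 in the full set and 0.12 without E47KO replicate 3. That made 4 of 10 members without overlap in that direction, against 7.2% of 13300 genes, and a median log2 fold change of 0.32 against 0.00 for all genes. Several members moved together across livers, as given below, so they are not independent genes. None of the 10 passed the adjusted test (0.00752% of genes did), 1 (*Nqo1*) passed an unadjusted p of 0.05 (3.08% of genes did), and DESeq2 called 0. *Gsta4* read 16.8 and 6.59 CPM in the 2 WT livers and 8.95 to 12.3 CPM in E47KO, and leaving out WT replicate 1 moved its log2 fold change from -0.13 to 0.71.

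At 1 h after injected Dex, *Gstm3* read 177, 116 and 229.6 CPM in E47LKO and 105, 105 and 81.5 CPM in floxed livers (log2 fold change 0.86 ± 0.23). *Nqo1* read 6.83, 6.84 and 8.25 CPM in E47LKO and 3.92, 3.95 and 5.62 CPM in floxed livers (0.71 ± 0.20). *Cbr3* read 1.20, 0.736 and 0.975 CPM against 0.266, 0.700 and 0.556 CPM (0.93 ± 0.43). For these 3 members all E47LKO livers lay above all floxed livers, against 3.86% of 12601 genes.

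The log2 fold changes of all 10 members were above 0 at 1 h, with a median of 0.32 against 0.00 for all genes. The members are not independent of each other. Over the livers the *Gstm* genes correlated at 0.62 to 0.88 (Pearson's r) and *Nqo1* with them at 0.54 to 0.77. For *Gstm1* the value was 0.44 ± 0.16 and for *Gstm2* 0.30 ± 0.11, whose E47LKO livers (86.8, 108 and 99.6 CPM) overlapped the floxed livers (81.9, 71.4 and 88.3 CPM). In edgeR's test 0 of 10 members passed the adjusted threshold, as did 0.0% of all genes, 4 members passed an unadjusted p of 0.05 (3.7% of genes did), and DESeq2 called 0. The E47LKO comparison concerns hepatocytes and a single injection, and differs from the whole-body comparisons in both.

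The difference between the genotype effect under 3 weeks of Dex and that in untreated livers was tested in one fit over all 30 livers. It passed for 0 of 10 members by edgeR (0.00616% of 16227 genes did) and by DESeq2. *Nqo1* was the 1 member with an unadjusted p under 0.05 (4.14% of genes did), at a difference of 0.67 ± 0.28 on the log2 scale. For *Gstm3* the difference was 0.36 ± 0.66 and for *Gstm2* 0.15 ± 0.42.

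**Figure D2:**
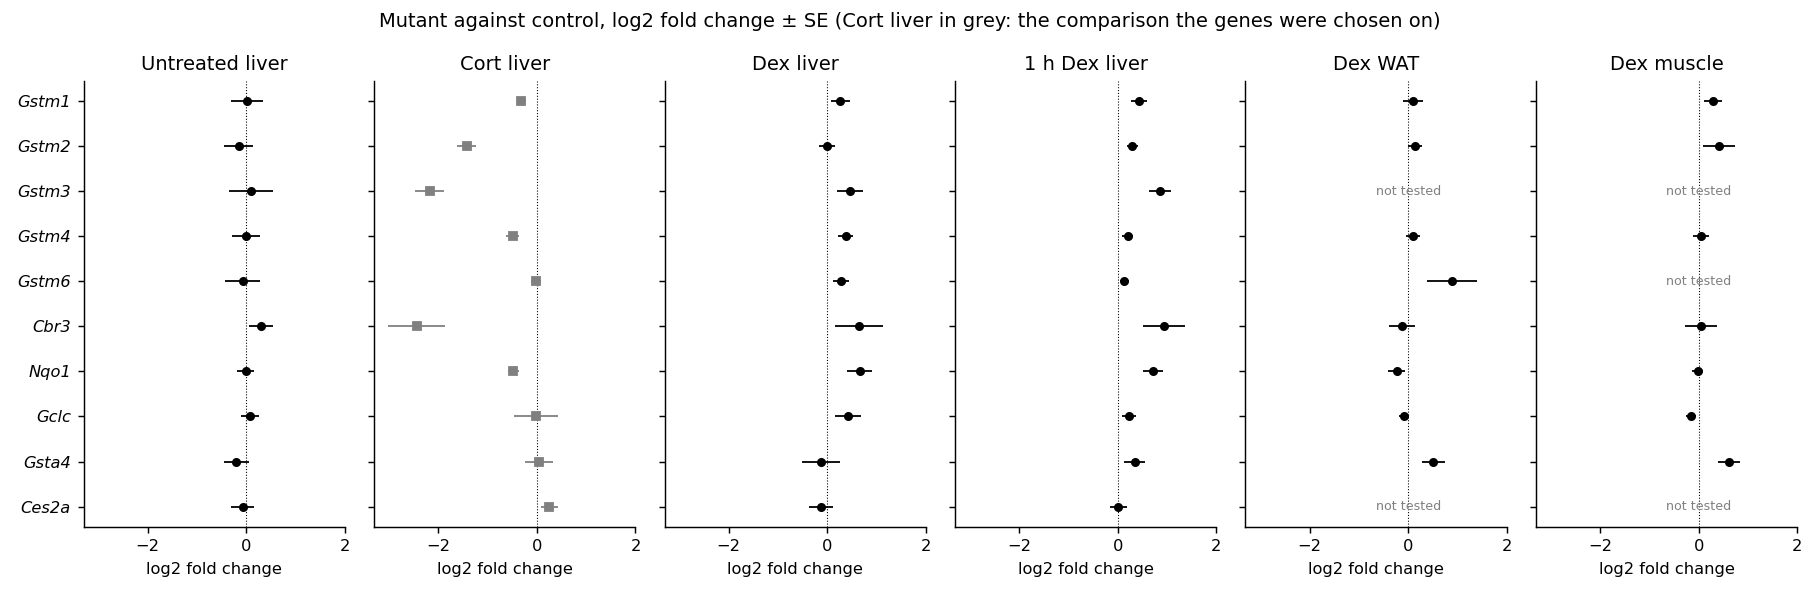
Log2 fold change of mutant against control for each of the 10 genes (points) with its SE (bars) in 6 experiments; grey squares are the Cort livers, on which the genes were chosen, and genes too low to test are marked. *Gstm2* and *Gstm3* lie at -1.43 and -2.17 in Cort livers and between -0.16 and 0.86 in the other 3 sets of livers.

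Untreated livers with lower and higher library numbers stood apart for part of the group. *Gstm1*, *Gstm2*, *Gstm3* and *Gstm6* were higher in each of the 3 lower-numbered libraries than in any of the 8 higher-numbered ones, that is in 4 of 10 members against 15.1% of 13904 genes (15.2% of genes were lower in that sense, and 0 members). *Gstm3* averaged 116 ± 35.8 CPM (SD, n = 3) in the lower and 46.5 ± 19.0 CPM (n = 8) in the higher numbers, *Gstm1* 2139 ± 471 and 1097 ± 307 CPM, *Gstm2* 132 ± 28.8 and 69.3 ± 15.4 CPM, and *Gstm6* 184 ± 29.1 and 89.2 ± 27.4 CPM. *Gclc* did not follow this order, at 203 ± 56.3 and 244 ± 48.5 CPM, nor did *Cbr3* at 0.543 ± 0.0856 and 0.476 ± 0.127 CPM. With library number as a term in the fit, the genotype log2 fold change was 0.37 ± 0.28 for *Gstm3* and 0.05 ± 0.18 for *Gstm2*, and 0 members were called. The hepatocyte marker sum was 107260 to 125673 CPM in the lower and 73766 to 125831 CPM in the higher numbers.

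**Figure D3:**
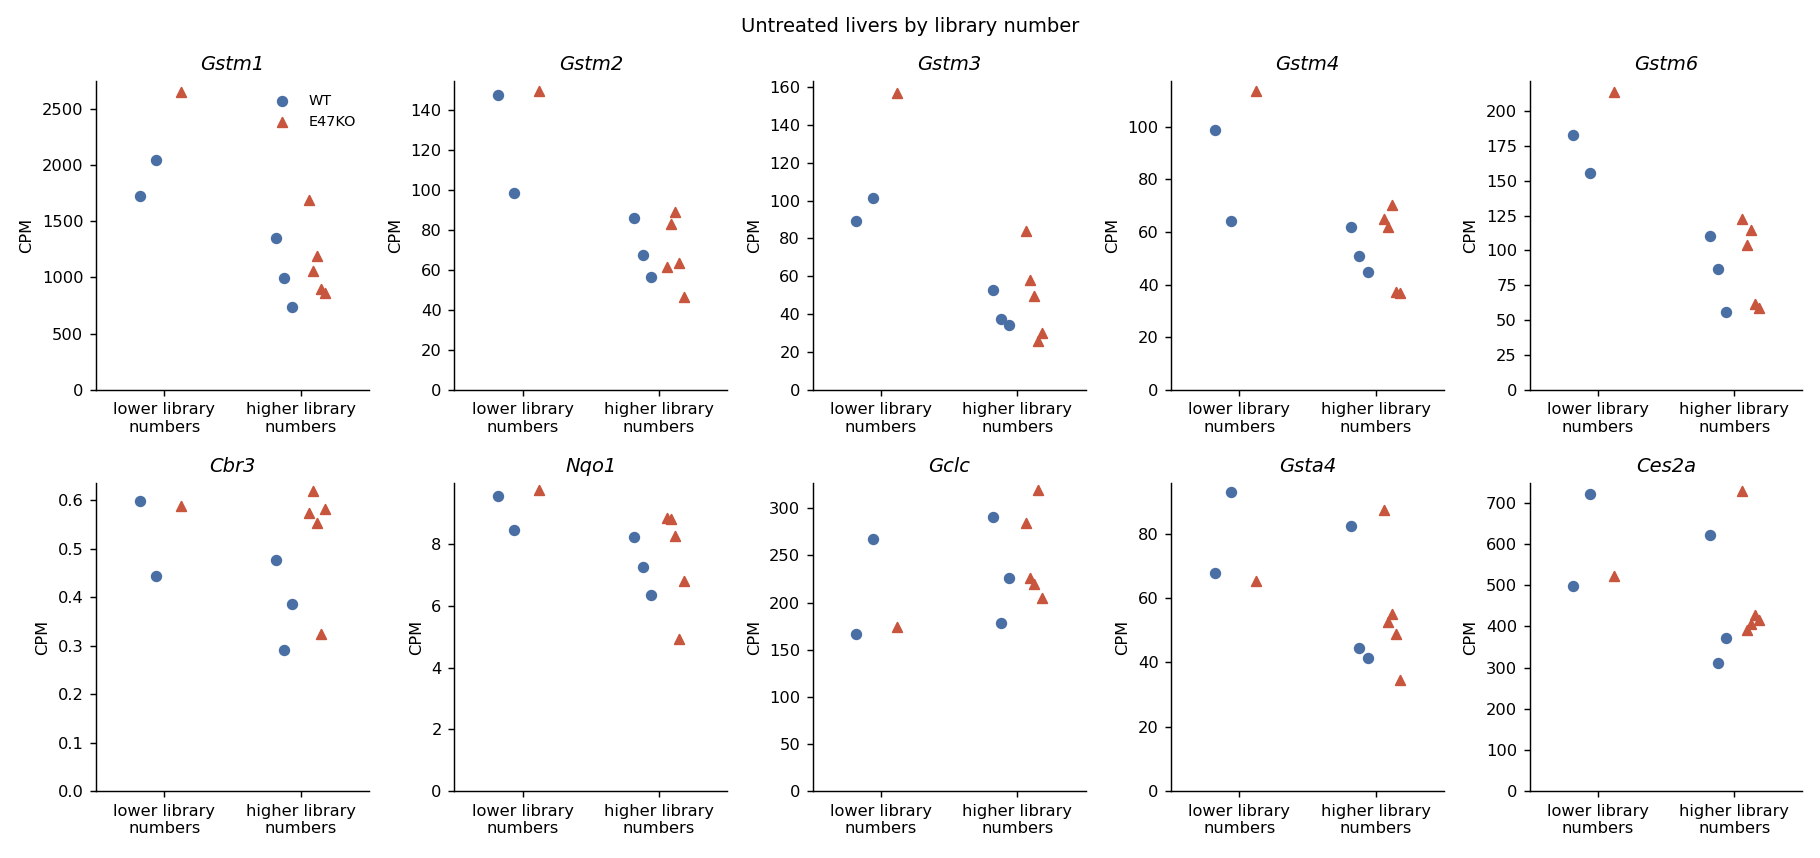
CPM of the 10 genes in the 11 untreated livers, 3 with lower and 8 with higher library numbers, each point 1 liver (circles WT, triangles E47KO). *Gstm1*, *Gstm2*, *Gstm3* and *Gstm6* are separated by library number, *Gstm3* at 89.4 to 157 CPM against 25.6 to 84.1 CPM, while among the higher-numbered libraries the ranges of the genotypes overlap.

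Over the 30 livers, deviations from the group means moved together within the cluster: Pearson's r between 2 *Gstm* genes was 0.62 to 0.88 over 10 pairs of genes. *Nqo1* correlated with the *Gstm* genes at 0.54 to 0.77 and *Gclc* at -0.14 to 0.02. These are descriptions across livers that share library sets, and the division of the untreated livers by library number was not taken out of them. Counts and medians over the members therefore do not rest on 10 independent genes. Among 7655 genes outside the group, the 5 whose deviations were most like those of *Gstm3* were *Trnau1ap* (r = 0.80), *Col5a3* (0.80), *Gpi1* (0.77), *Pcyt2* (0.77) and *Snrpa1* (0.76). Those most like *Nqo1* were *9130409I23Rik* (0.75), *Acsl5* (0.74), *Elovl5* (0.72), *Tbce* (0.72) and *Rdh11* (0.70).

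The treated livers were next compared with the untreated livers, averaging the genotypes. The 11 untreated livers serve all 3 comparisons, which are therefore not independent of each other, and each treatment coincides with its experiment. The Cort comparison also contains the E47KO livers by which *Gstm2* and *Gstm3* were chosen, so these genes are described in it without a test.

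After 3 weeks of Dex, 6 of 10 members fell and 0 rose, against 26.4% and 25.0% of 16227 genes, and the median of the members was -0.94 against -0.02 for all genes. *Gsta4* read 8.95, 12.3 and 11.0 CPM in Dex E47KO and 16.8 and 6.59 CPM in Dex WT livers, and 34.6 to 92.9 CPM in the untreated livers. No Dex liver reached the lowest untreated one, and the log2 fold change was -2.43 ± 0.28 (edgeR, adjusted p = 7.8e-08). *Gstm6* ranged from 18.6 to 27.4 CPM under Dex and from 55.7 to 214 CPM untreated (-2.31 ± 0.27, adjusted p = 7.9e-08). *Gstm4* fell by 1.42 ± 0.21 (adjusted p = 3.3e-06), *Nqo1* by 1.27 ± 0.14 (6.3e-08) and *Gstm1* by 1.18 ± 0.23 (0.00013) on the log2 scale.

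These 5 calls held with either set of untreated libraries. The *Gstm2* call did not hold with both sets: its log2 fold change of -0.53 ± 0.22 (adjusted p = 0.041) was -1.16 ± 0.18 against the lower-numbered and -0.22 ± 0.16 (adjusted p = 0.26) against the higher-numbered untreated libraries, and the call was lost in 8 of 16 fits that left out 1 library, with adjusted p-values of up to 0.12. *Gstm3* did not pass (-0.70 ± 0.34, adjusted p = 0.086), being at -1.58 ± 0.27 against the lower and -0.18 ± 0.27 against the higher numbers. It passed without untreated E47KO replicate 5 (adjusted p = 0.043). *Gclc*, *Cbr3* and *Ces2a* had log2 fold changes of -0.41 ± 0.25, 0.16 ± 0.38 and -0.12 ± 0.18 and did not pass.

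After 3 weeks of Cort, *Cbr3* and *Gclc* rose and *Gstm6*, *Gsta4* and *Ces2a* fell, against 27.2% of genes higher and 25.2% lower. These 5 calls also held with either set of untreated libraries. *Cbr3* ranged from 0.739 to 13.0 CPM in the Cort livers and from 0.291 to 0.620 CPM in the untreated livers, without overlap (log2 fold change 2.24 ± 0.27, adjusted p = 2.3e-07). Its means were 5.34 CPM in Cort WT and 0.995 CPM in Cort E47KO livers, against 0.439 CPM in untreated WT and 0.540 CPM in untreated E47KO livers. The rise averaged over genotypes thus lay mostly in the WT livers. Leaving out 1 library gave log2 fold changes of 1.77 to 2.37 for *Cbr3*. *Gclc* read 775, 355, 229.8 and 350.2 CPM in Cort WT and 732, 473, 239 and 267 CPM in Cort E47KO livers, against 167 to 319 CPM untreated (0.88 ± 0.21, adjusted p = 0.00089). The 3 Cort livers with lower animal numbers held 473 to 775 CPM of *Gclc* and the other 5 held 229.8 to 355 CPM, which overlaps the untreated range.

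*Gstm6* ranged from 39.4 to 51.8 CPM under Cort, below all 11 untreated livers (-1.36 ± 0.20, adjusted p = 4.7e-06). *Gsta4* ranged from 21.3 to 57.7 CPM (-0.69 ± 0.20, adjusted p = 0.0063) and *Ces2a* from 229 to 387 CPM (-0.66 ± 0.16, adjusted p = 0.00099), and both overlapped the untreated livers, at 34.6 to 92.9 and 311 to 727 CPM. The direction of *Gstm2* depended on the untreated set, and the average over genotypes covers levels on either side of the untreated ones. *Gstm2* averaged 149 ± 32.8 CPM in Cort WT and 55.9 ± 12.1 CPM in Cort E47KO livers (SD, n = 4 each), against 91.4 ± 35.6 CPM in untreated WT (n = 5) and 82.2 ± 36.4 CPM in untreated E47KO livers (n = 6). *Gstm3* likewise averaged 119 ± 54.4 CPM in Cort WT and 26.5 ± 2.32 CPM in Cort E47KO livers, against 63.1 ± 30.6 and 67.4 ± 48.5 CPM untreated. These levels are a description, since the genes were chosen on the Cort genotypes. Averaged over genotypes, the log2 fold change of *Gstm2* against all untreated livers was 0.08 ± 0.18. It was -0.58 ± 0.17 against the lower-numbered libraries and 0.38 ± 0.14 against the higher-numbered ones. For *Gstm3*, likewise without a test, the values were -1.13 and 0.29 in the same order. *Gstm1* and *Gstm4* were lower than the lower-numbered untreated libraries (log2 fold changes -0.92 and -0.96, both past the threshold). They did not pass against the higher-numbered ones (0.12 and -0.11).

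At 1 h after injected Dex, *Gclc* was higher and *Nqo1* lower than in untreated livers with either set of untreated libraries. *Gclc* read 463, 429.9 and 442 CPM in floxed and 533, 406 and 610.4 CPM in E47LKO livers, above all untreated livers (1.06 ± 0.22, adjusted p = 0.00058). *Nqo1* ranged from 3.92 to 8.25 CPM against 4.92 to 9.73 CPM untreated (-0.45 ± 0.13, adjusted p = 0.0064). Its means were 4.50 CPM in floxed and 7.31 CPM in E47LKO livers, against 7.96 CPM in untreated WT and 7.88 CPM in untreated E47KO livers. The fall averaged over genotypes thus lay mostly in the floxed livers. *Gstm3*, the third member called, had a log2 fold change of 1.01 ± 0.29 (adjusted p = 0.0087), which was 1.52 ± 0.25 against the higher-numbered and 0.11 ± 0.27 (adjusted p = 0.78) against the lower-numbered untreated libraries. The background was 16.7% of genes higher and 18.9% lower.

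*Gstm6* and *Gstm2* changed direction past the threshold or near it between the untreated sets at 1 h. *Gstm6* was at -0.47 ± 0.11 (adjusted p = 0.0024) against the lower-numbered and 0.63 ± 0.16 (adjusted p = 0.0032) against the higher-numbered libraries. *Gstm2* was at -0.59 ± 0.18 (adjusted p = 0.012) and 0.36 ± 0.15 (adjusted p = 0.058) in the same order. *Gstm1* and *Gstm4* passed against the higher-numbered libraries at 0.74 ± 0.14 and 0.57 ± 0.14, and against the lower-numbered ones they stood at -0.29 ± 0.13 and -0.27 ± 0.14 without passing.

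**Figure D4:**
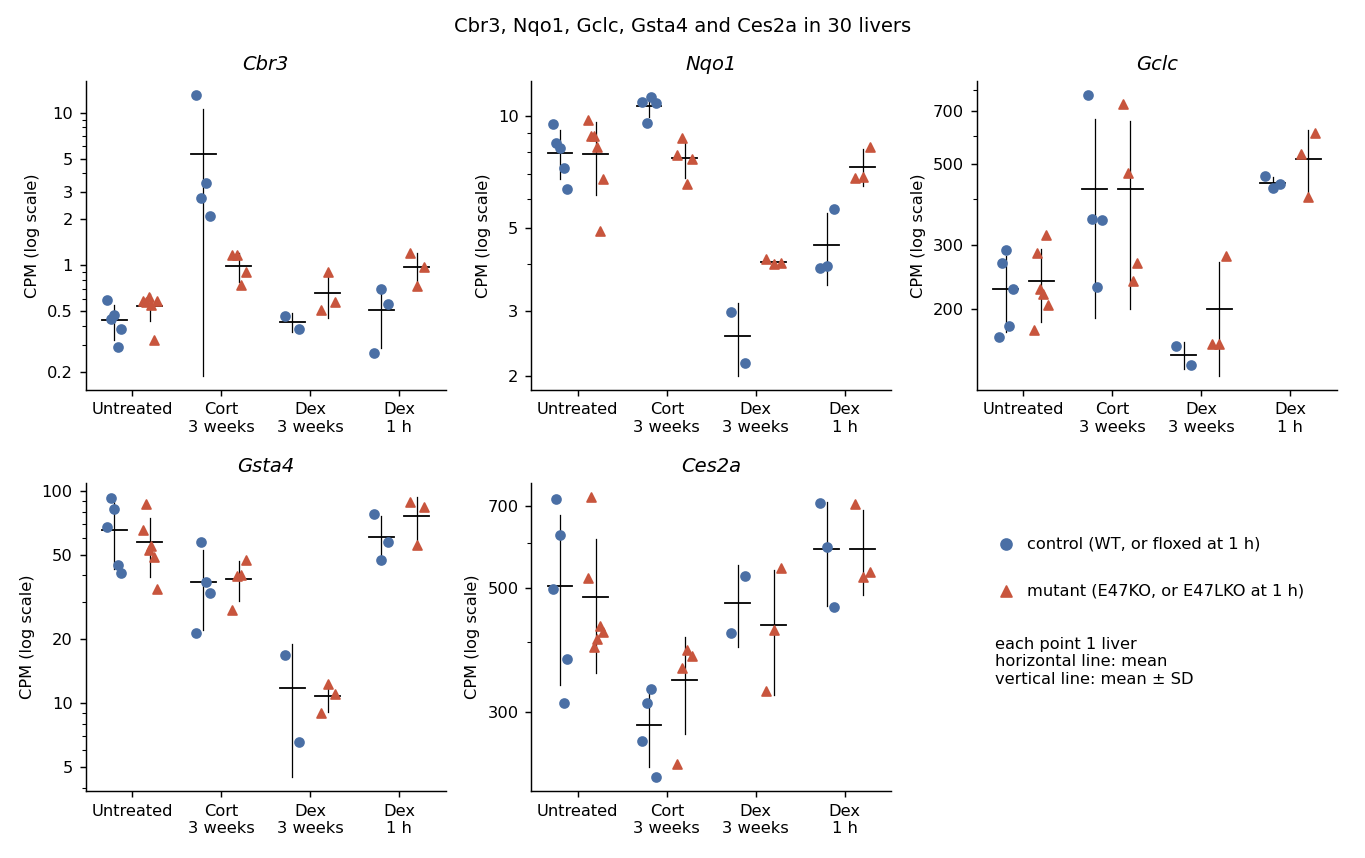
CPM (log axis) of *Cbr3*, *Nqo1*, *Gclc*, *Gsta4* and *Ces2a* in each of 30 livers, by treatment and genotype, with group means and SDs. *Gsta4* in the Dex livers (6.59 to 16.8 CPM) lies below every untreated liver, and *Cbr3* in the Cort livers (0.739 to 13.0 CPM) above every untreated liver.

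Other genes of the same pathways were counted from lists of known NRF2, glutathione transferase and xenobiotic receptor genes. Counts are against all 11 untreated livers unless the library set is named, and each is to be read beside the share of all genes called: 27.2% higher and 25.2% lower with Cort, 25.0% and 26.4% with 3 weeks of Dex, and 16.7% and 18.9% at 1 h. Against the lower-numbered untreated libraries these shares were 22.9% and 20.4%, 25.5% and 23.4%, and 19.7% and 20.2%, and against the higher-numbered ones 27.8% and 27.3%, 26.1% and 27.3%, and 16.6% and 19.6%.

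Among 9 regulators of NRF2, 6 rose and 1 fell with Cort (median log2 fold change 0.32), and 5 rose and 0 fell with 3 weeks of Dex (median 0.20). Against the lower-numbered libraries 3 rose and 1 fell with Cort, and 4 and 0 with Dex. Against the higher-numbered ones it was 6 and 2, and 6 and 0. *Sqstm1*, whose p62 protein draws KEAP1 into autophagy, rose by log2 0.83 ± 0.11 with Cort and 0.92 ± 0.13 with Dex, and the small MAF genes *Mafg* (0.75 ± 0.09, Cort), *Mafk* (1.37 ± 0.13, Dex) and *Maff* (2.16 ± 0.28, Dex) rose as well. At 1 h after Dex, 2 regulators rose and 3 fell, as they did against the lower-numbered libraries, with 3 and 3 against the higher-numbered ones. *Maff* was higher by 2.20 ± 0.27, and *Nfe2l2* itself fell by 0.74 ± 0.12, *Mafg* by 0.49 ± 0.11 and *Keap1* by 0.26 ± 0.07. The calls named for the regulators held with either set of untreated libraries.

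Of 29 other NRF2-type target genes tested, 10 rose and 6 fell with Cort, 5 rose and 13 fell with 3 weeks of Dex, and 2 rose and 3 fell at 1 h. The balance turned with the untreated set for Cort and at 1 h. Against the lower-numbered libraries 6 rose and 10 fell with Cort and 1 rose and 11 fell at 1 h, and against the higher-numbered ones 12 and 3, and 4 and 1. With Dex the counts were 2 and 11, and 7 and 14. *Cbr1*, a carbonyl reductase related to *Cbr3*, rose with Cort (1.13 ± 0.15) and with Dex (1.01 ± 0.17). *Ephx1*, an epoxide hydrolase, rose with Cort (0.93 ± 0.11). *Prdx1*, a peroxidase, fell in both (-0.45 ± 0.08 and -0.74 ± 0.10), and the pentose phosphate genes *Tkt* (-1.09 ± 0.17) and *Pgd* (-1.06 ± 0.18) fell with Dex. At 1 h *G6pdx*, the first gene of that pathway, was higher by 0.79 ± 0.13 and *Osgin1* lower (-3.50 ± 0.51). The *G6pdx* call was lost against the lower-numbered libraries (0.42 ± 0.18, adjusted p = 0.069), and the other calls named here held with either set.

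Of 18 other glutathione transferase genes tested, 1 rose and 15 fell with Dex (median log2 fold change -0.84, against -0.02 for all genes). With Cort 1 rose and 10 fell (median -0.38). Against the lower-numbered libraries 0 rose and 14 fell with Dex and 0 and 11 with Cort, and against the higher-numbered ones 1 and 16, and 2 and 9. Examples with Dex were *Gsta3* (-1.07 ± 0.12), *Mgst1* (-0.73 ± 0.10) and *Gstz1* (-0.54 ± 0.07), and with Cort *Gstm7* (-1.27 ± 0.17), *Gstp1* (-1.23 ± 0.19) and *Gstp3* (-1.14 ± 0.22), all of which passed with either set. At 1 h 1 rose and 2 fell, against 1 and 9 with the lower-numbered and 2 and 1 with the higher-numbered libraries.

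Response genes of the xenobiotic receptors CAR and PXR split, with 8 rising and 4 falling of 23 after Cort, 11 and 8 after Dex, and 3 and 4 at 1 h, and each of these counts moved by at most 1 with either set of untreated libraries. *Sult1e1*, an oestrogen sulfotransferase, and *Cyp2b10*, a classical CAR target, rose after Cort (6.21 ± 0.49 and 5.20 ± 0.59), also with either set. Of 6 AhR response genes tested 1 rose and 2 fell after Cort, 4 and 1 after Dex, and 3 and 1 at 1 h. Against the lower-numbered libraries 2 AhR response genes rose and 2 fell after Cort, and against the higher-numbered ones 0 and 1. Genes of pericentral hepatocytes, the zone where many detoxification enzymes are made, had 1 higher and 7 lower of 15 after Cort, 3 and 7 after Dex, and 0 and 6 at 1 h. At 1 h they were 0 and 7 against the lower-numbered and 1 and 3 against the higher-numbered libraries. Of 14 periportal genes 1 rose and 8 fell after Cort, 2 and 5 after Dex, and 2 and 0 at 1 h. The periportal counts are given only against all untreated livers. The same holds for the AhR counts after Dex and at 1 h and the pericentral counts after Cort and Dex.

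Between genotypes outside the Cort livers, 0 genes of these 7 lists passed the adjusted threshold in edgeR. DESeq2 called 0 in the 3 sets of livers, 1 in WAT and 3 in muscle, all higher in E47KO: *Hal*, a histidine-degrading enzyme of the periportal list, in both tissues, and *G6pdx* and *Ces1d* in muscle. At an unadjusted p under 0.05 in edgeR the NRF2 regulators counted 1 of 9 in Dex liver, 0 in untreated liver, 1 at 1 h, 0 in WAT and 0 in muscle, and the other NRF2-type targets 2, 0 and 3 of 28 in the livers, 1 of 28 in WAT and 3 of 26 in muscle. The shares of all genes are 3.08%, 3.63%, 3.7%, 4.29% and 3.94% in the same order.

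The other glutathione transferases with an unadjusted p under 0.05 were 2 of 18 in Dex liver, 0 of 18 in untreated liver, 3 of 17 at 1 h, 2 of 18 in WAT and 5 of 16 in muscle. The 5 in muscle were *Mgst2* (log2 fold change 1.86 ± 0.47), *Gsta3* (1.08 ± 0.43), *Gstz1* (0.46 ± 0.15), *Mgst1* (0.39 ± 0.16) and *Gstp2* (-0.30 ± 0.10), and their adjusted p-values in edgeR were 0.74 for *Mgst2* and 1.00 for the others. These genes, like *Hal*, *G6pdx* and *Ces1d* in the genotype comparisons, are named after their values were seen. The adipocyte marker sum, 475 to 569 CPM in E47KO and 156 to 241 CPM in WT muscle, was also higher in E47KO, and its part in these values was not tested. For the CAR and PXR response genes the counts were 6 of 22, 0 of 21, 3 of 21, 2 of 12 and 1 of 9 in that order of sets, for the AhR response genes 1, 1, 2, 1 and 1 of 6, for the pericentral genes 3 of 15, 0 of 15, 0 of 15, 0 of 9 and 0 of 8, and for the periportal genes 1 of 13, 1 of 13, 0 of 13, 1 of 13 and 4 of 12.

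In tissues of the 3-week Dex mice the group divided into genes shared between tissues and genes near the limit outside the liver. *Gstm3* held 0 to 2 counts per library in muscle and 1 to 4 in WAT, against 462 to 1127 counts in Dex liver. *Ces2a* held 0 to 25 counts in muscle and 0 to 16 in WAT, and *Gstm6* 2 to 10 counts in muscle. All 3 were higher in liver than in either tissue, and no fold is given where so few counts decide it. Hepatocyte markers summed to 2769 to 5674 CPM in WAT, where 4 of the 6 averaged at least 1 CPM in each genotype. The lowest means there were *Tat* at 0.801 CPM in WT and *Serpina1c* at 0.472 CPM in E47KO. In Dex liver the lowest was *Serpina1c*, at 994 CPM in WT and 892 CPM in E47KO. The part of liver transcripts in the WAT values was not tested.

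*Gclc* read 140.1 to 280.0 CPM in Dex liver, 17.3 to 19.8 CPM in WAT and 15.4 to 19.3 CPM in muscle, at log2 differences of 3.15 ± 0.17 from WAT (adjusted p = 4.9e-09) and 3.15 ± 0.16 from muscle (adjusted p = 1.7e-09). *Gstm1* was also highest in liver (479 to 765 CPM), with 280.0 to 376 CPM in WAT and 93.9 to 154 CPM in muscle. Differences between liver and WAT here and in the next paragraph rest on the TMM factors given above. Levels without that scaling were not compared. *Nqo1* had the opposite order, with 18.4 to 21.7 CPM in muscle against 2.18 to 4.12 CPM in liver (-2.79 ± 0.11, adjusted p = 1.8e-10) and 3.25 to 3.98 CPM in WAT. *Gstm2* was higher in WAT (111.5 to 144 CPM) than in liver (50.4 to 70.4 CPM, -1.20 ± 0.20, adjusted p = 0.00015), as was *Cbr3* (2.39 to 3.54 CPM against 0.384 to 0.907 CPM, -2.57 ± 0.24, adjusted p = 9e-07).

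Counted over the members, 7 were higher and 1 lower in liver than in muscle, against 36.0% and 40.4% of 18113 genes, and 6 were higher and 2 lower in liver than in WAT, against 33.8% and 41.6%. These fits treat the 14 libraries as independent, although 3 of the 11 mice gave both a liver and a muscle. With the mouse as a block in limma the counts were again 7 and 1, and 6 and 2. *Gstm4* was higher in liver than in WAT by 0.39 ± 0.13 (adjusted p = 0.014), a call lost without Dex liver WT replicate 1 (0.080), without WAT WT replicate 2 (0.062) or without WAT E47KO replicate 3 (0.066). Without Dex liver WT replicate 1, *Nqo1* (-0.35, adjusted p = 0.020) and *Gsta4* (-0.53, adjusted p = 0.027) passed as lower in liver than in WAT, which they did not in the full set. In muscle *Gstm5*, a family member outside the group, supplied 19.8% of the *Gstm* counts in E47KO and 24.3% in WT libraries, against 0.489% and 0.654% in Dex liver.

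Between genotypes, 0 of 8 members tested in WAT and 0 of 7 tested in muscle passed in edgeR (0.0% of 16289 and 0.0134% of 14962 genes did), DESeq2 called 0 in each, and at an unadjusted p under 0.05 there were 0 in WAT and 1 in muscle (4.29% and 3.94% of genes). That 1 was *Gsta4*, with 4.67, 4.53 and 3.61 CPM in E47KO and 2.60 and 3.06 CPM in WT muscle (0.62 ± 0.21). All E47KO muscles lay above both WT muscles for *Gsta4*, as for 8.57% of genes. The part of the adipocyte marker transcripts, which were higher in the same libraries, in the *Gsta4* values was not tested. In WAT *Gsta4* read 12.7 and 15.0 CPM in E47KO and 7.44 and 12.0 CPM in WT (0.51 ± 0.24), and *Nqo1* 3.25 and 3.45 against 3.84 and 3.98 CPM (-0.23 ± 0.17), and with 2 libraries a group 16.9% of genes lay wholly above and 15.7% wholly below. *Gclc* in muscle lay lower in all 3 E47KO libraries (15.4, 16.9 and 18.2 CPM) than in both WT libraries (19.3 and 18.6 CPM), as for 7.04% of genes, with a log2 fold change of -0.16 ± 0.10.

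**Figure D5:**
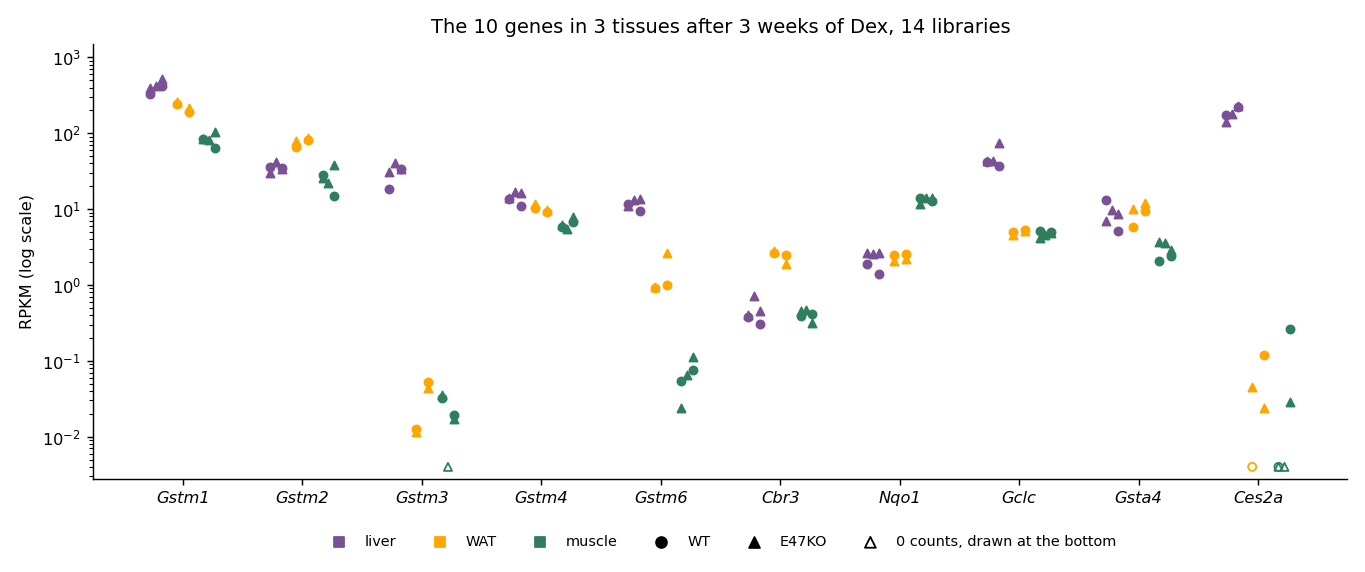
RPKM (log axis) of the 10 genes in liver, WAT and muscle of the 3-week Dex mice, each point 1 library (circles WT, triangles E47KO), with open symbols for 0 counts drawn at the bottom. *Gstm3* and *Ces2a* are near the limit outside the liver, *Nqo1* is highest in muscle (mean 13.4 RPKM in WT), and *Gstm2* (74.2 RPKM in WT) and *Cbr3* are highest in WAT.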

How the data were processed

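Poly(A) RNA-Seq libraries of liver, white adipose tissue and muscle were analysed from the gene counts deposited for each sample. Per the labels and the study's methods, the authors aligned reads to mm10 with STAR 2.4.2a and, per those methods, counted them per gene (Ensembl 38.91) with the same tool. The submitters' processing notes also name HTSeq, and the 3-week Dex files close with lines named as HTSeq names them. The unstranded count was used throughout. The 3-week Dex libraries are labelled unstranded and the others stranded, yet the Cort libraries held equal shares of counts on each strand. Lines that name no gene made up 20.8% to 36.8% of each library and were left out. Tables holding the authors' own comparisons (fold changes and p-values) were not used.

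Groups came from the sample labels. Genes passing edgeR's filterByExpr were tested with the quasi-likelihood test of edgeR 4.0.16 (R 4.3.3) after TMM scaling, within each experiment for genotypes, over 30 livers in 8 groups for treatments, and over the 14 Dex libraries in 6 groups for tissues. P-values were adjusted by Benjamini-Hochberg over all genes tested at a threshold of 0.05, and SEs were taken from the F statistic. The members and lists were chosen with earlier results of these data known. All 10 members are named, and from each list at most 4 called genes, ranked by p-value in a comparison, could be named. The script was tested on simulated data with changed genes. DESeq2 1.42.0, other scaling, no filter, the strand column, animal-number sets, replicate blocks leaving out each library and, for tissues, the mouse as a block (limma voom, consensus correlation 0.20, added after the values were seen) were tried as alternatives. Replicates are separate animals within a genotype and treatment. Gene models were GENCODE M21 (GRCm38), matched for 45229 of 46078 identifiers, and promoters came from RefSeq (GRCm38.p6). Among livers, counts per library limit precision most for *Cbr3*. In muscle and WAT, *Gstm3*, *Ces2a* and, in muscle, *Gstm6* are lower still.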

Additional observations from a re-analysis of the deposited data

Results flagged for a closer look

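Within 40 gene and group combinations of 4 to 6 livers, 3 held a liver far from the others by Dixon's criterion, and chance alone gives about 1 in 20. In Cort WT livers *Gstm1* read 1147 CPM in replicate 4 against 1368 to 1387 CPM in the other 3. *Cbr3* read 13.0 CPM in Cort WT replicate 1 against 2.11 to 3.45 CPM in the others. In untreated E47KO livers *Cbr3* read 0.324 CPM in replicate 5 against 0.553 to 0.620 CPM in the others.

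For some genes every mutant library lay on one side of every control library in one experiment and on the opposite side in another. These differences between experiments were not tested, they include the Cort contrast on which the genes were chosen, and a small group separates easily. The log2 fold change of mutant against control in Cort livers minus that at 1 h of Dex was -3.03 for *Gstm3*, -3.37 for *Cbr3* and -1.19 for *Nqo1*. The value in 3-week Dex livers minus that in Cort livers was 0.86 for *Gstm4*, 3.07 for *Cbr3* and 1.13 for *Nqo1*. For *Nqo1* the value in WAT was lower than in 3-week Dex livers by a difference of 0.89 and than in 1 h Dex livers by 0.95. For *Gclc* the value in Dex livers minus that in Dex muscle was 0.58.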

How the results depend on the processing

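Outside the Cort livers, where no calls were made, the genotype comparisons called 0 members under every alternative run. Of the single-member values under the alternatives set at the outset, leaving out a library aside, 490 counted as unchanged. The exceptions were 12 of the other sign, 3 weaker, 1 stronger and 1 moved. Outside the Cort genotype contrast, unchanged values kept their direction and side of the threshold. In that untested contrast a shift under the larger of the replicate SDs of WT and E47KO counted as unchanged, whatever the sign. The counts of members called were 5 for Cort against untreated (6 with the strand column), 6 for Dex (5 with RLE scaling or the strand column), 3 at 1 h, 8 for liver against muscle and 8 for liver against WAT (7 without a filter). The *Gstm2* call with Dex was lost with RLE scaling (adjusted p = 0.051) and the strand column (adjusted p = 0.060), *Gstm4* with Cort was gained with the strand column (-0.46, adjusted p = 0.018), *Gstm4* in liver against WAT was lost without a filter (adjusted p = 0.056), and *Nqo1* in the Cort genotype contrast was -0.28 with the strand column. Alternatives on library number were chosen after seeing the data, and with the lower-numbered untreated libraries 9 members were called with Cort, and with the higher-numbered ones 6 at 1 h. The 9 include *Gstm2* and *Gstm3*, whose Cort values were used in the choice, so this count is a description. Of the pathway list counts with 1 set of untreated libraries, 58 stayed within 1.5 times, 10 were higher and 16 lower. The mouse as a block, also added later, changed no call in the tissue comparisons. Leaving out 1 library gave 3 to 5 members at 1 h, the 5 without untreated E47KO replicate 1, when *Gstm1* (0.54) and *Gstm4* (0.43) passed, and *Gstm1* also passed without untreated WT replicate 2 (0.50). *Gstm4* with Cort passed without untreated WT replicate 5, E47KO replicate 5 or E47KO replicate 6, and *Gstm2* in liver against muscle passed without muscle WT replicate 1 (0.64) or muscle E47KO replicate 3 (0.50).

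Without the filter on low counts the log2 values of the other sign were 0.0014 (*Gstm2*) for genotype in Dex liver, 0.0024 (*Gstm4*) for genotype in untreated liver. With a replicate block the log2 values of the other sign were 0.022 (*Gstm2*) for genotype in Dex liver, 0.077 (*Gstm4*), 0.062 (*Gstm6*) for genotype in untreated liver, -0.075 (*Gstm4*) for genotype in muscle. With the animal-number sets as a covariate the log2 values of the other sign were 0.10 (*Gstm4*), 0.14 (*Gstm6*), 0.066 (*Nqo1*), 0.064 (*Gsta4*), 0.18 (*Ces2a*) for genotype in untreated liver, -0.018 (*Cbr3*) for genotype in muscle. With library number as a covariate the log2 values of the other sign were 0.045 (*Gstm2*), 0.15 (*Gstm4*), 0.18 (*Gstm6*), 0.056 (*Nqo1*), -0.0073 (*Gclc*), 0.025 (*Ces2a*) for genotype in untreated liver. With the higher-numbered untreated libraries alone the log2 values of the other sign were 0.039 (*Gstm4*), 0.13 (*Gstm6*), 0.043 (*Nqo1*), 0.12 (*Ces2a*) for genotype in untreated liver, 0.12 (*Gstm1*), 0.29 (*Gstm3*) for Cort against untreated, -0.12 (*Gsta4*) for the Dex minus untreated genotype difference. With the lower-numbered untreated libraries alone the log2 values of the other sign were -0.58 (*Gstm2*), -0.056 (*Nqo1*) for Cort against untreated, -0.0039 (*Cbr3*) for Dex against untreated, -0.29 (*Gstm1*), -0.59 (*Gstm2*), -0.27 (*Gstm4*), -0.47 (*Gstm6*), -0.068 (*Gsta4*) for 1 h Dex against untreated, -0.24 (*Gstm1*), -0.29 (*Gstm2*), -0.27 (*Gstm3*), -0.12 (*Gstm4*), -0.074 (*Gstm6*), 0.084 (*Ces2a*) for the Dex minus untreated genotype difference. Leaving out 1 library at a time gave log2 values of both signs, for members not called in the full set, over these ranges. For genotype in Dex liver they were *Gstm2* -0.16 to 0.095, *Ces2a* -0.32 to 0.048, *Gsta4* -0.65 to 0.71. For genotype in Cort liver, where no calls were made, they were *Gstm6* -0.069 to 0.069, *Gclc* -0.40 to 0.45, *Gsta4* -0.15 to 0.33. For genotype at 1 h they were *Ces2a* -0.14 to 0.16. For genotype in untreated liver they were *Gstm1* -0.26 to 0.21, *Gstm3* -0.34 to 0.33, *Gstm2* -0.41 to 0.080, *Gstm4* -0.24 to 0.20, *Gstm6* -0.35 to 0.13, *Nqo1* -0.087 to 0.088, *Gclc* -0.032 to 0.18, *Ces2a* -0.23 to 0.096. For genotype in WAT they were *Gstm1* -0.088 to 0.30, *Gstm4* -0.048 to 0.23, *Gstm6* -0.053 to 1.45, *Cbr3* -0.45 to 0.14. For genotype in muscle they were *Cbr3* -0.050 to 0.21, *Nqo1* -0.11 to 0.071, *Gstm4* -0.079 to 0.17, *Gstm2* -0.0061 to 0.99. For Cort against untreated they were *Gstm3* -0.38 to 0.0054. For 1 h Dex against untreated they were *Gstm2* -0.048 to 0.18. For the Dex minus untreated genotype difference they were *Ces2a* -0.26 to 0.12, *Gstm2* -0.085 to 0.40, *Gsta4* -0.45 to 0.92, *Gstm3* -0.0079 to 0.84. For liver against muscle they were *Cbr3* -0.21 to 0.030. For liver against WAT they were *Gsta4* -0.53 to 0.16.

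Replicate numbers did not pair the samples: correlations of deviations between same-numbered samples were -0.51 to -0.06 in Dex liver, -0.12 to 0.78 in Cort liver, 0.02 to 0.22 at 1 h, -0.00 to 0.81 in untreated liver and -0.18 to 0.22 in muscle. With the replicate block 0 members were called, and WAT genotypes shared 1 number, so no block could be fitted there. Over all genes the genotype calls were 1 in Dex liver (24 by DESeq2, 62 without a filter, 0 with the block), 0 at 1 h (6, 1), 4 in untreated liver (11, 8, 2 with the block), 0 in WAT (37, 6), 2 in muscle (93, 37, 1 with the block, 4 with animal-number sets) and 1 for the Dex minus untreated difference (2 by DESeq2). Among livers depth limits *Cbr3* most, with 4 to 24 counts in livers without Cort, and with 2 or 3 libraries a group differences of the size of the SEs given could not be resolved. The causes of these changes were not tested.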
